A study of Homo sapiens with 6 samples.

Results

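The beta tubulin isotypes were examined as the 8 genes *TUBB*, *TUBB1*, *TUBB2A*, *TUBB2B*, *TUBB3*, *TUBB4A*, *TUBB4B* and *TUBB6*, taken by gene symbol from a table of 58336 genes. All 8 had a row in the table. A2780 cells, an established human ovarian cancer line, were exposed to DMSO vehicle or to 6 µM TH588 for 48 h, and polyadenylated RNA from 3 independent experiments of each treatment (replicates A, B and C) was sequenced. TH588 is a first-generation inhibitor of MTH1, a Nudix hydrolase that clears oxidised nucleotides, and it also stalls cells in mitosis. Both groups are the same line with no genetic change, so a single line and a single dose and time stand for the drug.

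Microtubules are polymers of heterodimers that each pair an alpha with a beta tubulin, and they form the mitotic spindle. The beta tubulin isotypes are encoded by separate genes and differ mostly in their carboxy-terminal tails. *TUBB* and *TUBB4B* are made in most tissues, *TUBB3* and *TUBB4A* are best known from the nervous system, *TUBB1* from platelets and their precursors, and *TUBB2A*, *TUBB2B* and *TUBB6* from several tissues to differing degrees. Cells adjust tubulin mRNA to the pool of unpolymerised dimer: when free dimer is abundant, TTC5 recognises the first residues of a tubulin chain as it leaves the ribosome, and SCAPER and the CCR4-NOT deadenylase complex bring about the decay of that mRNA.

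The stretch of mRNA that encodes those first residues is shown for each member. TTC5 recognises the residues in the chain, not the bases. The first 30 coding bases of the MANE Select transcripts in GENCODE's annotation of GRCh38 were as follows, with the first 12 bases, which encode the start methionine and the next residues, in capitals.
TUBB: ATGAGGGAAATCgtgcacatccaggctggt
TUBB1: ATGCGTGAAATTgtccatattcagattggc
TUBB2A: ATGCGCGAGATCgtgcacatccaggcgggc
TUBB2B: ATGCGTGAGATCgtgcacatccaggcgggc
TUBB3: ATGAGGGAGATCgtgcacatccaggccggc
TUBB4A: ATGCGGGAGATCgtgcacctgcaggccggc
TUBB4B: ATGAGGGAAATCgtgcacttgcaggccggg
TUBB6: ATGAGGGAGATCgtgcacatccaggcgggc
The 8 starts fell into 6 different strings of 12 bases. All of them encode the same residues, methionine, arginine, glutamate and isoleucine, so the strings differ only in synonymous codons. *TUBB* and *TUBB4B* had the same 12 bases, and *TUBB3* and *TUBB6* shared another string. Over the whole coding sequence, *TUBB2A* and *TUBB2B* were 98.2% identical and differed at 24 of 1335 aligned bases. The next most alike of the 28 pairs, *TUBB2A* and *TUBB4A*, were 90.3% identical. *TUBB* and *TUBB4B* were 84.6% identical, and the least alike pair, *TUBB1* and *TUBB4B*, 75.1%.

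Identity and overlap limit what a read count can assign. Of all 50-base stretches of the *TUBB2A* transcript, 64.6% occurred in a transcript of another gene, and 59.5% in *TUBB2B*. For *TUBB3* the share was 92.8%, all of it in an overlapping same-strand gene, ENSG00000198211, whose exons cover 35.8% of the *TUBB3* exon bases. That overlapping gene held 0 to 2 counts in each library. The share was 19.3% for *TUBB*, mostly with *TUBBP1*, 10.4% for *TUBB4B*, 6.73% for *TUBB4A*, 1.09% for *TUBB6* and 0 for *TUBB1*. Opposite-strand genes covered 34.0% of the exon bases of *TUBB1* (*ATP5F1E*), 20.3% of *TUBB6* (*AFG3L2*), 16.0% of *TUBB*, 15.9% of *TUBB4A*, 7.93% of *TUBB2B* and 5.87% of *TUBB4B*. The library kit does not mark strand, and how reads in shared or overlapping sequence were counted is not given in the sources used here, so the values of *TUBB2A*, *TUBB2B*, *TUBB3* and *TUBB1* in particular are uncertain.

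Total counts ranged from 28537837 in TH588 replicate A to 99074175 in TH588 replicate B. The small nucleolar RNA *SNORD3A* took 21.9% of the counts in TH588 replicate A and 7.68% to 13.0% in the other libraries. Normalised counts are given as CPM, the count divided by the TMM-scaled size of its library, where 3 counts correspond to 0.0276 to 0.112 CPM. Epithelial and ovarian markers were nearly absent: of 8, only *KRT18* and *EPCAM* passed the filter on low counts, and *PAX8*, *WT1*, *CDH1* and *KRT19* held at most 7 counts in any library. Those that were tested rose, and the summed level of the list was 3.82 to 4.60 CPM in DMSO libraries against 10.9 to 12.2 CPM after TH588. No pair of replicates agreed within sampling noise, since the chi-square between them, divided by its degrees of freedom, was 23.5 to 165.

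*TUBB* and *TUBB4B* fell after TH588 and *TUBB4A* rose, while the other tested isotypes did not pass the test. The 8 members summed to 3352, 3132 and 3361 CPM in DMSO replicates A, B and C, against 1743, 1517 and 1413 CPM after TH588. The summed level with TH588 was thus 47.5% of that with DMSO (1558 ± 169 against 3282 ± 130 CPM, SD, n = 3 each), and the groups did not overlap. The difference was -1.08 on the log2 scale, with an exact two-sided permutation p = 0.1, the smallest that 3 against 3 libraries can give. *TUBB* made up 73.5% and *TUBB4B* 24.2% of the difference in mean summed CPM. In bulk RNA, fewer cells of a type and less RNA per cell cannot be told apart.

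Of the 8 members, 7 passed edgeR's filter on low counts, and *TUBB2B* did not. At an adjusted p under 0.05 (edgeR quasi-likelihood test, Benjamini-Hochberg over 15844 genes), 3 of the 7 were called, where 49.6% of all genes tested were called. In the higher direction 1 of 7 was called against 24.2% of all genes, and in the lower direction 2 of 7 against 25.3%. The groups of libraries did not overlap for 4 of the 7, against 57.7% of all genes tested. The median log2 fold change was -0.16 over the 7 and 0.019 over all genes. The count of called members was thus near the background.

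**Figure D1:**
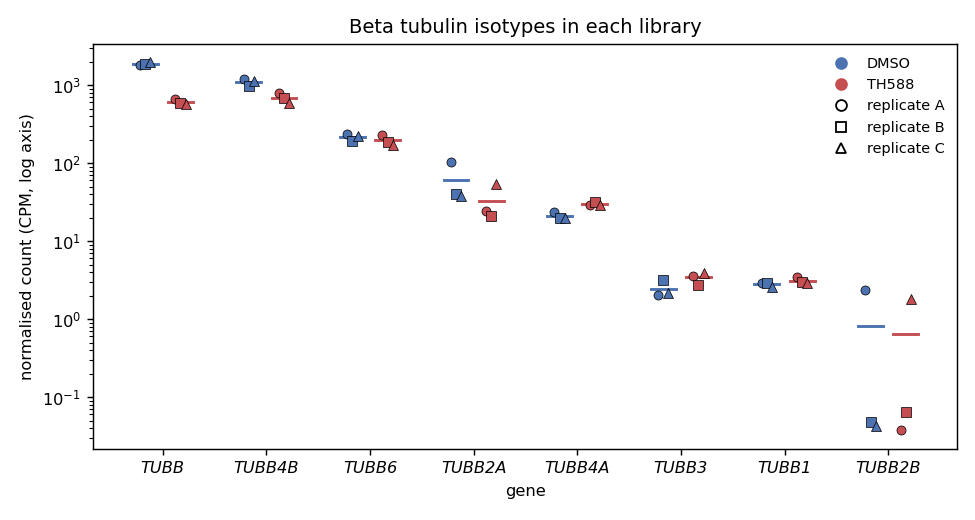
Normalised count (CPM, log axis) of each beta tubulin isotype in each library, with DMSO in blue, TH588 in red, a marker shape per replicate and a line at each group's mean. *TUBB* and *TUBB4B* are lower and *TUBB4A* higher in all 3 TH588 libraries, whereas for *TUBB2A* and *TUBB2B* DMSO replicate A and TH588 replicate C sit above the rest of their groups.

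*TUBB* (ENSG00000196230, chr6:30720201-30725426, plus strand, GRCh38) encodes the beta tubulin found in most dividing cells. It was at 1791, 1888 and 1953 CPM with DMSO and at 665, 596 and 571 CPM with TH588. Every TH588 library lay below every DMSO library by a wide margin, and the means were 1877 ± 82 and 611 ± 49 CPM (SD, n = 3 each). The log2 fold change was -1.62 (SE 0.086, edgeR adjusted p = 5.98e-08), which leaves 32.5% of the DMSO level. Across 16 alternative settings it lay between -1.67 and -1.52 and stayed called.

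*TUBB4B* (ENSG00000188229, chr9:137241213-137243707, plus strand), the other broadly expressed isotype, was at 1190, 984 and 1125 CPM with DMSO and at 789, 673 and 583 CPM with TH588. The groups did not overlap, but the highest TH588 library was closer to the lowest DMSO library than for *TUBB*. The log2 fold change was -0.69 (SE 0.113, edgeR adjusted p = 0.000291), or 62.0% of the DMSO level, and it stayed called in the same 16 settings with values between -0.80 and -0.53.

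*TUBB4A* (ENSG00000104833, chr19:6494319-6502848, minus strand), an isotype of neurons and myelinating glia, was far less abundant, at 23.9, 19.6 and 19.9 CPM with DMSO and 29.0, 31.5 and 28.9 CPM with TH588. All TH588 libraries were above all DMSO libraries. The log2 fold change was 0.50 (SE 0.0999, edgeR adjusted p = 0.00124), and it stayed called in the 16 settings with values between 0.45 and 0.62. Neuron markers were largely absent: 5 of 8 had 0 counts in all libraries, including *SNAP25*, and 2 were tested. Their summed level was 2.95 to 3.29 CPM with DMSO and 5.01 to 6.73 CPM with TH588, mostly from *MAPT*, which encodes the microtubule-associated protein tau and was the 1 neuron marker that rose (2.87 ± 0.08 to 5.62 ± 0.86 CPM, edgeR adjusted p = 0.00015). The part of this in the rise of *TUBB4A* was not tested.

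*TUBB6* (ENSG00000176014, chr18:12307669-12344320, plus strand), a broadly expressed minor isotype, was at 239, 194 and 220 CPM with DMSO and 229, 189 and 168 CPM with TH588. The groups overlapped, and the log2 fold change of -0.16 (SE 0.115, edgeR adjusted p = 0.273) did not pass the test. It passed only without TH588 replicate A (-0.28, adjusted p = 0.0319), and it was 0.01 without DMSO replicate A and TH588 replicate C (adjusted p = 0.964).

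*TUBB3* (ENSG00000258947, chr16:89921392-89938761, plus strand), the isotype used as a neuronal marker and often studied in taxane resistance, was at 2.02, 3.13 and 2.18 CPM with DMSO and 3.59, 2.76 and 3.93 CPM with TH588. TH588 replicate B fell within the DMSO range. The log2 fold change was 0.48 (SE 0.206, edgeR adjusted p = 0.0708) and did not pass the test. It passed without DMSO replicate B (0.69, adjusted p = 0.0198), without TH588 replicate B (0.63, adjusted p = 0.0307), with no filter on low counts (0.49, adjusted p = 0.034) and with library size as the only scaling (0.59, adjusted p = 0.0382), a scaling under which the median of all genes moved from 0.019 to 0.126. These low values rest on 96 to 328 counts per library and on a gene whose transcript is mostly shared. The overlapping gene ENSG00000198211 held 0 to 2 counts per library, so at most that many reads of the shared sequence were credited to both genes. If such reads were left out of both, the *TUBB3* values are too low.

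*TUBB1* (ENSG00000101162, chr20:59019254-59026654, plus strand), the isotype of platelets and megakaryocytes, was at 2.90, 2.88 and 2.56 CPM with DMSO and 3.44, 2.94 and 2.90 CPM with TH588. The groups lay within a narrow range and missed overlap only barely, with 2.8962 CPM in DMSO replicate A and 2.8997 CPM in TH588 replicate C. The log2 fold change of 0.14 (SE 0.155, edgeR adjusted p = 0.479) did not pass the test. The opposite-strand neighbour *ATP5F1E*, a subunit of the mitochondrial ATP synthase, stood at 247 to 406 CPM. Of 6 platelet and megakaryocyte markers, *PF4*, *PPBP* and *GP9* had 0 counts in all libraries. *ITGA2B* was the 1 that rose, from 0.50 ± 0.15 to 1.51 ± 0.22 CPM. The summed level was 11.1 to 15.2 CPM with DMSO and 13.9 to 16.0 CPM with TH588. Nearly all of it came from *GP1BA*, at 13.07 ± 2.2 and 13.55 ± 1.4 CPM, which did not pass the test (edgeR adjusted p = 0.801).

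*TUBB2A* (ENSG00000137267, chr6:3153669-3157526, minus strand) and *TUBB2B* (ENSG00000137285, chr6:3224261-3231730, minus strand) are near-identical neighbours on the short arm of chromosome 6. *TUBB2A* was at 102, 39.9 and 38.2 CPM with DMSO and 24.2, 21.2 and 53.7 CPM with TH588. DMSO replicate A and TH588 replicate C were each well above the other libraries of their group. *TUBB2B* held 195, 4 and 4 counts with DMSO and 1, 7 and 152 counts with TH588, so the same libraries stood apart and the others were near the limit of 3 counts. There were 42.9 *TUBB2A* counts for each *TUBB2B* count in DMSO replicate A and 29.5 in TH588 replicate C, against 330 to 894 in the other libraries.

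**Figure D2:**
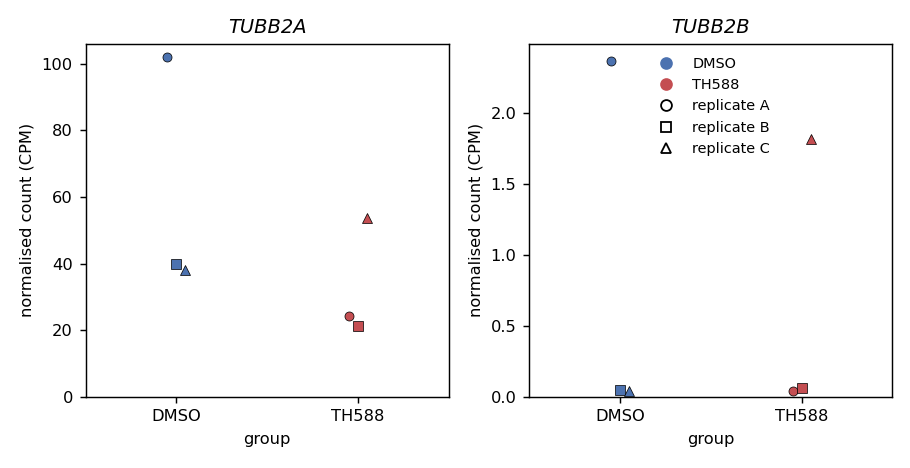
Normalised count (CPM) of *TUBB2A* and *TUBB2B* in each library by group, with a marker shape per replicate. DMSO replicate A (102 CPM of *TUBB2A*) and TH588 replicate C (53.7 CPM) stand above the other libraries of their groups for both genes.

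For *TUBB2A* the log2 fold change was -0.85 (SE 0.383, edgeR adjusted p = 0.0846) and did not pass the test. The value turned on single libraries: it was -0.21 without DMSO replicate A (adjusted p = 0.589), -1.39 without TH588 replicate C (adjusted p = 0.0131) and -1.08 without DMSO replicate C (adjusted p = 0.0407). Without both libraries that stood apart, a setting chosen after seeing the data, it was -0.79 (adjusted p = 0.0011). With no filter on low counts it was -0.85 with an adjusted p of 2.56e-15, and *TUBB2B*, which the default filter leaves out, was at -0.22 (adjusted p = 0.633). That small value for *TUBB2A* came at much the same fold change as in the main fit, and the groups overlapped. The edgeR adjusted p of *TUBB* also moved with no filter, from 5.98e-08 to 1.69e-66. The no-filter value is therefore not read as stronger evidence for *TUBB2A*.

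Levels can be compared between isotypes only per length, so counts were divided by the exon length in the authors' table. On the scale of CPM per kilobase, *TUBB* and *TUBB4B* stood at 559 ± 24 and 521 ± 50 with DMSO (SD, n = 3), and their ranges overlapped. *TUBB6* followed at 52.9 ± 5.5 and *TUBB2A* at 34.7 ± 21.0, again with overlapping ranges, then *TUBB4A* at 6.09 ± 0.69. *TUBB1*, *TUBB3* and *TUBB2B* were each under 1 CPM per kilobase on average, and *TUBB3* and *TUBB2B* overlapped. The length of *TUBB3* includes bases shared with the overlapping gene, so its level here, and its shares at any length below, may be too low. With TH588, *TUBB4B* at 323 ± 49 was above *TUBB* at 182 ± 15 in all 3 libraries, with no overlap. *TUBB6* at 47.4 ± 7.5, *TUBB2A* at 19.1 ± 10.4 and *TUBB4A* at 8.61 ± 0.43 followed without overlapping, *TUBB1* overlapped with *TUBB3*, and *TUBB3* with *TUBB2B*.

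Shares of the beta tubulin total show the same data within each library, where scaling between libraries does not enter. *TUBB* took 43.6, 50.8 and 48.6% of the counts per kilobase with DMSO and 30.4, 31.4 and 32.2% with TH588. Its mean share was 47.7 ± 3.7% with DMSO and 31.3 ± 0.9% with TH588 (SD, n = 3 each), a difference of -16.3 percentage points. *TUBB4B* took 46.1, 42.2 and 44.5% with DMSO and 57.4, 56.4 and 52.2% with TH588, and its mean share was 11.1 points higher with TH588 although its level fell.

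*TUBB6* held 4.75, 4.26 and 4.46% with DMSO and 8.52, 8.11 and 7.71% with TH588. *TUBB4A* held 0.518 ± 0.042% with DMSO and 1.49 ± 0.18% with TH588, *TUBB1* 0.0679 ± 0.0067% and 0.152 ± 0.004%, and *TUBB3* 0.0474 ± 0.0144% and 0.134 ± 0.030%. The groups did not overlap for these 4 or for *TUBB* and *TUBB4B*, that is for 6 of the 8 shares, each at an exact two-sided permutation p = 0.1, the smallest possible here. Shares sum to 100%, so a lower *TUBB* share raises the rest without any change in their levels, and the levels of *TUBB6*, *TUBB1* and *TUBB3* did not pass the test.

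**Figure D3:**
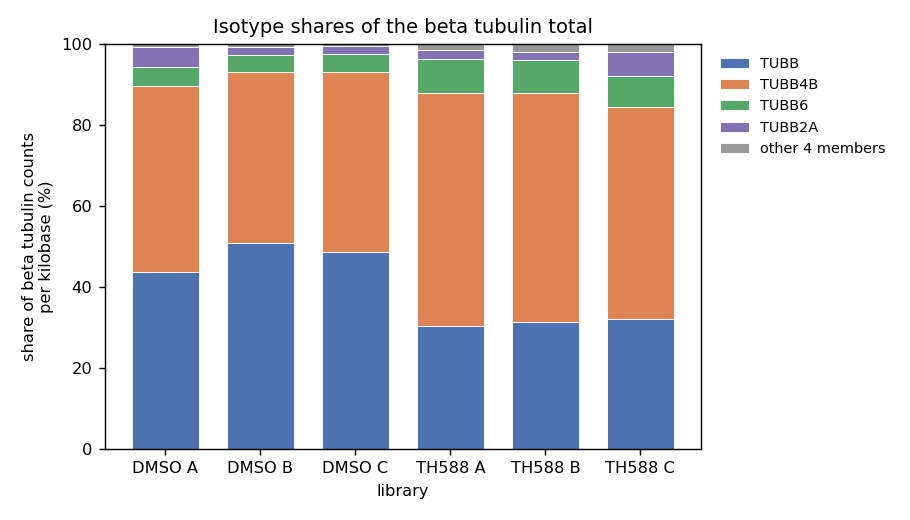
Share of each isotype in the summed counts per kilobase of the 8 genes, as stacked bars for each library. *TUBB* takes 43.6 to 50.8% in the DMSO group and 30.4 to 32.2% in the TH588 group, and *TUBB4B* 42.2 to 46.1% and 52.2 to 57.4%.

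The shares of *TUBB2A* overlapped between the groups. They were 4.83, 2.09 and 1.85% with DMSO and 2.15, 2.17 and 5.88% with TH588 (exact two-sided permutation p = 0.5, n = 3 each). *TUBB2B* was under 0.16% in every library, and its shares overlapped too. *TUBB* and *TUBB4B* together held 84.3 to 93.1% of the counts per kilobase in each library.

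The length used for scaling moved the size of the shares, major and minor. With the length of the MANE Select transcript, a setting chosen after seeing the data, *TUBB6* held 7.16 ± 0.40% with DMSO and 12.6 ± 0.6% with TH588, and *TUBB3* 0.0896 ± 0.0271% and 0.247 ± 0.057%. *TUBB* then held 46.3 ± 3.5% and 29.7 ± 1.0%. *TUBB4B* held 43.5 ± 2.0% and 53.1 ± 2.3% with that length. As a share of raw counts, *TUBB* held 57.3 ± 3.5% and 39.3 ± 1.1%, and *TUBB4B* 33.5 ± 2.0% and 43.6 ± 2.1%. *TUBB* was then above *TUBB4B* in every DMSO library and below it in every TH588 library, by little in TH588 replicate C (40.42 against 41.23%). The widest 95% Wilson interval of a count share had a half-width of 0.452 points, which covers counting error only.

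Ratios between isotypes were taken within each library for 5 pairs. *TUBB4B* stood at 1.06, 0.829 and 0.916 times *TUBB* per length with DMSO and at 1.89, 1.80 and 1.62 times with TH588. The ratio of *TUBB6* to *TUBB4B* was 0.103, 0.101 and 0.1 with DMSO and 0.149, 0.144 and 0.148 with TH588. *TUBB6* and *TUBB4B* thus deviated together from library to library within a group. The ratio of *TUBB4A* to *TUBB* was 0.0109 ± 0.0017 with DMSO and 0.0475 ± 0.0047 with TH588, a difference of 2.13 on the log2 scale. The groups did not overlap for these ratios or for that of *TUBB6* to *TUBB* (exact two-sided permutation p = 0.1 each, n = 3 against 3). They did overlap for *TUBB2A* to *TUBB2B*, which ranged widely within each group, at 54.5, 1040 and 1140 with DMSO and 822, 419 and 37.4 with TH588 (exact two-sided permutation p = 0.5).

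**Figure D4:**
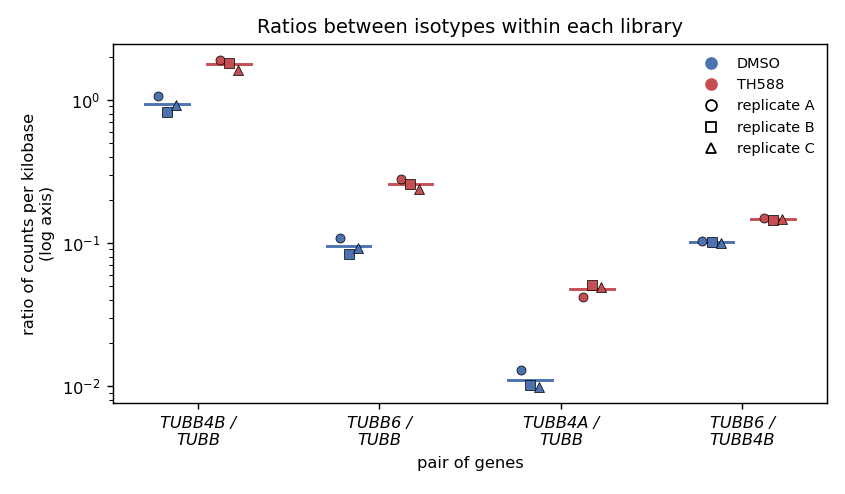
Ratio of counts per kilobase between pairs of isotypes within each library (log axis), with DMSO in blue, TH588 in red, a marker shape per replicate and a line at each group's mean. The 4 ratios plotted, which leave out *TUBB2A* to *TUBB2B*, are higher in the TH588 libraries, and that of *TUBB6* to *TUBB4B* was 0.101 ± 0.0014 and 0.147 ± 0.0026 (SD, n = 3 each).

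The promoters of the 3 called isotypes are shown because *TUBB* and *TUBB4B* fell while *TUBB4A* rose. The 250 bases before the start site of the MANE Select transcript are from RefSeq on GRCh38.p14, in the direction of the gene, with motif matches in capitals. They lie at chr6:30720102-30720351 (plus strand) for *TUBB*, chr9:137241037-137241286 (plus strand) for *TUBB4B* and chr19:6502310-6502559 (minus strand) for *TUBB4A*.
TUBB: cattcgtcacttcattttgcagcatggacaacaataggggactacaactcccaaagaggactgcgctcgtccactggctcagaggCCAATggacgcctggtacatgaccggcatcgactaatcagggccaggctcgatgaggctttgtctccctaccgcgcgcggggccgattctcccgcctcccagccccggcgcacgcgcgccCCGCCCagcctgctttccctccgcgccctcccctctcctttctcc
TUBB4B: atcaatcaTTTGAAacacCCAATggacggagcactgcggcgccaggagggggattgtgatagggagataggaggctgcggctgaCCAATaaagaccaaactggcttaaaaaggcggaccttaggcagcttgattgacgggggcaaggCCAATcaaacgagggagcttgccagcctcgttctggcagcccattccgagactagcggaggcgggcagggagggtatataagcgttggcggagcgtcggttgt
TUBB4A: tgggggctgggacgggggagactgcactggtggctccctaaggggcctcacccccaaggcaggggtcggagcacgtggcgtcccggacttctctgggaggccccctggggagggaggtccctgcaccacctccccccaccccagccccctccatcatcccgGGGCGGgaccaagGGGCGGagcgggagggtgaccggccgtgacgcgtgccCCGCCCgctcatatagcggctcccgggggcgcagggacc
Matches on both strands were sought over windows of 300 bases, which add 50 bases after the start. The motifs were CCAAT (the NF-Y box, in 34.6% of 35116 promoters), TTTGAA and TTCGAA (the cell cycle homology region, in 15.2% and 1.45%), GGGCGG (the GC box, in 45.0%), and TTTCGCGC and TTTGGCGC (E2F sites, in 0.515% and 0.652%). *TUBB4B* had 3 matches to CCAAT, at -232, -166 and -103 from the start site, and 1 to TTTGAA at -242. The *TUBB* promoter shown had 1 match to CCAAT at -165 and 1 to GGGCGG on the opposite strand at -45. The *TUBB4A* promoter shown had 3 matches to GGGCGG and 0 to CCAAT. *TUBB* and *TUBB4A* each have a second start site in RefSeq, not shown because the MANE Select transcript does not begin there. The second window of *TUBB* had 6 matches to GGGCGG and 0 to CCAAT, and that of *TUBB4A* had 2 to CCAAT and 1 to GGGCGG, so the matches did not separate *TUBB* from *TUBB4A* once both windows were read. A match is a stretch of letters and says nothing of whether a factor binds there.

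The genes whose pattern over the 6 libraries was nearest to each called isotype were chosen by the smallest root mean square difference in centred log2 CPM. They were *H4C2* (0.0616), *CCNA2* (0.0659) and *PRIM1* (0.0765) for *TUBB*, *EGLN1* (0.0564), *CHCHD10* (0.0587) and *MAZ* (0.0611) for *TUBB4B*, and *ANKRD13D* (0.0232), *FLCN* (0.0264) and *DEPDC5* (0.0368) for *TUBB4A*. *CCNA2*, which encodes cyclin A2, went from 159 CPM with DMSO to 53.2 CPM. Mitotic genes were lower beside *TUBB* and *TUBB4B*: all 10 on the list fell, where 25.3% of all genes tested were called lower. The median log2 fold change was -1.14, and their summed level was 4261 to 4459 CPM with DMSO and 1526 to 1968 CPM with TH588. *CDK1*, the kinase that drives entry into mitosis, fell most, from 58.8 ± 5.0 to 16.0 ± 2.7 CPM (edgeR adjusted p = 2.46e-07). The part of this in the fall of the beta tubulins was not tested.

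Among the 12 tested of 15 other tubulin genes, 4 rose, 4 fell and 4 did not pass the test, with a median of 0.10. Of all genes tested, 24.2% were called higher and 25.3% lower, the background for this list and those that follow. *TUBA1C*, an alpha tubulin, fell from 546 ± 19 to 226 ± 23 CPM (-1.27, SE 0.089, edgeR adjusted p = 3.92e-07). *TUBB8B*, a close copy of the oocyte isotype *TUBB8*, rose from 2.56 ± 0.31 to 7.90 ± 0.72 CPM (1.62, SE 0.143, edgeR adjusted p = 2.22e-06). Whether it shares reads with copies of *TUBB8* was not examined.

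Genes of tubulin mRNA autoregulation were all expressed: 13 of 13 were tested, 2 rose, 6 fell and 5 did not pass, with a median of -0.12. *TTC5*, which reads the nascent tubulin chain, fell from 17.4 ± 0.8 to 13.0 ± 1.3 CPM (-0.43, SE 0.109, edgeR adjusted p = 0.00594). *SCAPER*, the adaptor to the deadenylase, fell from 44.2 ± 1.3 to 35.4 ± 0.3 CPM (-0.32, edgeR adjusted p = 0.00388). Of the 4 deadenylase subunits of CCR4-NOT, *CNOT7* fell by 0.85 on the log2 scale (83.0 ± 7.4 to 45.9 ± 2.7 CPM). Its paralogue *CNOT8* rose by 0.76 (30.9 ± 1.5 to 52.3 ± 2.4 CPM), and *CNOT6* rose by 0.59 (64.6 ± 2.1 to 97.4 ± 5.4 CPM, edgeR adjusted p = 5.5e-05). *CNOT6L*, the paralogue of *CNOT6*, was at -0.05 and did not pass the test (edgeR adjusted p = 0.702).

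**Figure D5:**
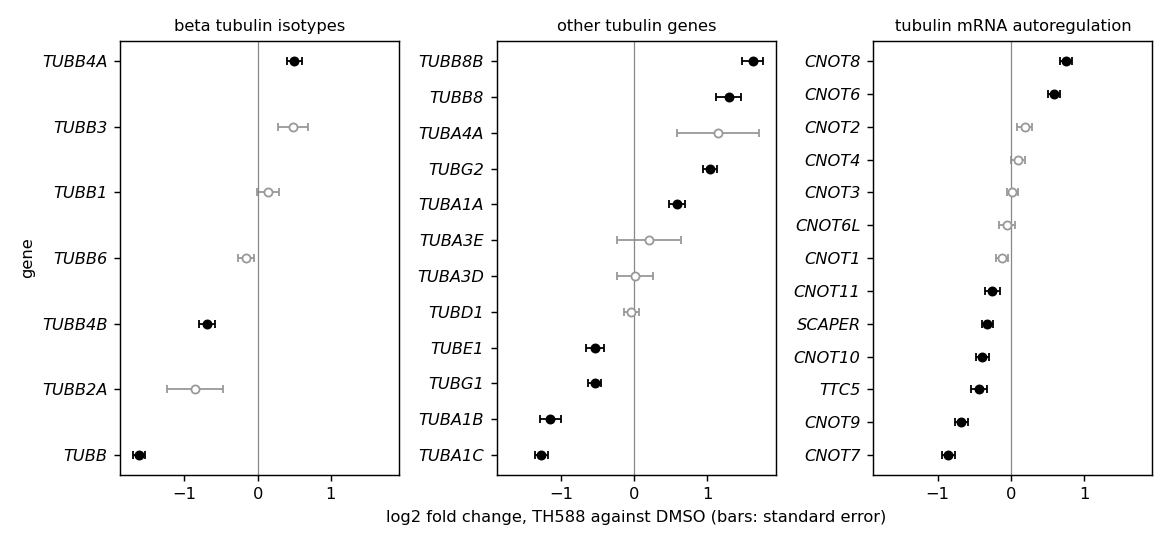
Log2 fold change of TH588 against DMSO with its standard error for the 7 tested isotypes, the 12 tested other tubulin genes and the 13 autoregulation genes. Filled black points passed an edgeR adjusted p under 0.05 and open grey points did not, and *TUBB* at -1.62 lies lowest of all points shown.

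Of the genes that fold tubulin and assemble its dimer, all 21 were tested, 2 rose, 13 fell and 6 did not pass, with a median of -0.33. *TCP1*, a subunit of the chaperonin that folds tubulin, fell most (676 ± 30 to 350 ± 21 CPM, -0.95, edgeR adjusted p = 1.63e-06). *ARL2*, a small GTPase that acts with the tubulin cofactors, rose most (3.45 ± 0.56 to 5.65 ± 1.33 CPM, 0.73, edgeR adjusted p = 0.0055). The summed level of the list was 7271 to 7754 CPM with DMSO and 4608 to 4967 CPM with TH588, so it was lower along with the beta tubulin total. Most of that sum came from the chaperonin subunits *TCP1* and *CCT2* to *CCT8*, which all fell. The cofactors *TBCA*, *TBCB* and *TBCD* fell by less (-0.325, -0.217 and -0.231). *TBCC*, *TBCE* and *TBCEL* did not pass the test, and *PFDN5* rose (0.349, edgeR adjusted p = 0.00835).

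Of 25 genes that modify tubulin, mostly at its tail, 21 were tested, 7 rose, 8 fell and 6 did not pass, with a median of -0.22. *TTLL3*, a glycylase, rose from 6.23 ± 0.72 to 13.0 ± 1.2 CPM (1.07, edgeR adjusted p = 2.34e-05), and *TTLL4*, a glutamylase, fell from 121 ± 3 to 72.2 ± 9.7 CPM (-0.74, edgeR adjusted p = 5.6e-05). *HDAC6*, the tubulin deacetylase, rose from 37.3 ± 2.1 to 75.6 ± 5.5 CPM (1.02, edgeR adjusted p = 1.46e-06) and was named after its values were seen. The summed level of the list was 448 to 456 CPM with DMSO and 406 to 439 CPM with TH588.

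Other cell types that a culture could hold were read from their markers. Fibroblast markers were all tested, 3 of 6 rose and none fell, and their summed level was 1591 to 1919 CPM with DMSO and 1882 to 2622 CPM with TH588, nearly all from *COL3A1*. Leukocyte markers summed to 0.742 to 1.27 CPM with DMSO and 0.947 to 1.27 CPM with TH588, with 1 of 2 tested genes higher. Whether any such cells were present was not tested, nor was a part of theirs in the beta tubulin values.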

How the data were processed

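The deposited table holds raw read counts per gene for 6 libraries, 3 of DMSO and 3 of TH588. Per the labels and methods, the authors made it with TopHat on GRCh38 and featureCounts 1.4.6, and compared groups with DESeq2. UCSC gene models are named in the methods, but identifiers are Ensembl's, of which 57754 of 58336 matched a symbol. The counts were fitted with edgeR 4.0.16 in R 4.3.3 (TMM, default filter, quasi-likelihood test, treatment only, Benjamini-Hochberg over 15844 genes). Standard errors are per gene on the log2 scale. Totals, shares and ratios were compared by exact permutation in scipy 1.17.1, where the smallest p is 0.1. CPM uses TMM library sizes. All 8 members are named. For each called member the 3 genes nearest in pattern are named, and from each list the largest rise and fall among called genes without overlap whose mean log2 CPM was 2 or more, with *TTC5*; other genes named were picked after their values were seen. The members and lists were chosen with earlier results of these data known. Alternatives were scaling by library size only, by DESeq2's size factors or without the 10 most abundant genes, DESeq2 1.42.0, limma-voom (limma 3.58.1), no filter, a minimum of 10 counts per library, an adjusted p under 0.01, each library left out, the replicate letter as a block, and other lengths and denominators. Added after seeing the data were leaving out DMSO A with TH588 C, and MANE Select lengths. The procedure was tested on simulated data.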

Additional observations from a re-analysis of the deposited data

How the results depend on the processing

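*TUBB*, *TUBB4B* and *TUBB4A* kept their direction and stayed called under all 16 alternatives. The number of members called was 3, was 5 with no filter, where *TUBB2A* and *TUBB3* were added, and ranged from 3 to 4 when each library was left out. With no filter the median of all genes moved from 0.019 to 0.141. The adjusted p of *TUBB2A* was 2.56e-15 there (edgeR) although its groups overlapped, against 0.257 with DESeq2 and 0.0905 with limma-voom. *TUBB6* changed sign to 0.009 without DMSO A and TH588 C together. The beta tubulin total kept its direction under 13 alternatives and ranged from -1.16 to -1.01 on the log2 scale when each library was left out. The share of *TUBB2A*, 0.481 points higher with TH588, ranged from -0.758 to 1.43 points over those fits, turning lower without DMSO C (-0.0556) or TH588 C (-0.758). That of *TUBB2B* ranged from -0.0268 to 0.0531 points, turning lower without TH588 C. The shares of the other 6 members kept their direction. The causes were not tested.

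Samples with the same replicate letter did not deviate together (correlations of -0.285, -0.325 and -0.021 for A, B and C). With the replicate block, 3 members were called, and the total differed by -1.08 with an exact sign-flip p = 0.25, the smallest that 3 pairs allow. At 1 to 7 counts in 4 libraries, *TUBB2B* was near the limit of detection. The depth of TH588 replicate A was the lowest.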

Other observations

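The table holds 37 further rows whose symbol begins with TUBB, most of them pseudogenes, and 21 had 0 counts in all libraries. Of the 9 that were tested, 6 were higher with TH588 and none was lower, where 24.2% of all genes tested were called higher and 25.3% lower. The 6 include *TUBB8* and *TUBB8B*, already counted among the other tubulin genes above, and *TUBB8P7*. Whether such copies share reads was not examined, so the 6 may not be separate. *TUBBP5* was at 5.93, 6.14 and 6.84 CPM with DMSO and 15.8, 13.95 and 13.6 CPM with TH588 (log2 fold change 1.19, edgeR adjusted p = 5.59e-06), and *TUBBP1*, which shares sequence with *TUBB*, averaged 0.279 CPM with DMSO and 1.07 CPM with the drug (1.93, edgeR adjusted p = 0.000365). The 37 rows together summed to 11.7 to 13.6 CPM with DMSO and 28.1 to 33.9 CPM with TH588, the opposite direction to *TUBB* itself. They made up 0.348 to 0.402% of all TUBB counts with DMSO and 1.91 to 1.95% with TH588. That share rose by more than the level because the beta tubulin total beneath it fell.

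The pattern of *TUBB2A*, in which DMSO replicate A and TH588 replicate C each stood more than 1 log2 unit above both other libraries of their group, was looked for across all genes after it was seen. It was met by 2 of 15844 genes tested, *TUBB2A* and *AGAP10P*, a pseudogene that was at 5.51, 1.82 and 1.11 CPM with DMSO and 1.87, 2.48 and 6.78 CPM with TH588. *TUBB2B*, which was not tested, held most of its counts in the same libraries.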
